A study of Homo sapiens with 21 samples.

Results

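The 9 genes MDM2, GDF15, BTG2, TP53INP1, SESN1, BBC3, FAS, ZMAT3 and TP53I3, all known to be switched on by the transcription factor p53, were followed in immortalised mammary epithelial cells on TGFβ. They were taken by symbol, with no threshold on their values, but with earlier results of these data known. All 9 were found among the 23201 gene symbols of the deposited table and all 9 passed the filter on low values. RNA sequencing was available for 21 libraries of HMLE, an established line of immortalised human mammary epithelial cells. There were 3 libraries of untreated cells (d0) and 3 each after 1, 4, 7, 10, 15 and 20 days of TGFβ (d1, d4, d7, d10, d15 and d20), a cytokine that induces epithelial-mesenchymal transition (EMT). Every group was the same line seeded at one density, no dose was given, and no untreated culture of a later day was labelled, so TGFβ and the days in culture cannot be told apart. The study calls the libraries biological triplicates but the labels name no separate cultures, so the p-values measure the spread between these libraries only.

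p53 is held at a low level by MDM2, a ubiquitin ligase that is itself a p53 target, and when it is released it binds paired half-sites in DNA and raises genes that halt division, repair DNA, restrain growth signalling or prepare cell death. HMLE cells were immortalised with telomerase and the SV40 early region, whose large T antigen binds p53 as well as the retinoblastoma proteins. TGFβ itself slows the division of epithelial cells, in part through CDKN1A, a CDK inhibitor that is shared by the p53 and the TGFβ pathways.

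The DNA near the start of each gene was searched for p53 sites, because p53 acts on its targets through such sites. Windows from 250 bases before to 50 bases after each RefSeq start (GRCh38.p14) were matched to the p53 consensus, a pair of half-sites of 10 bases each, on both strands, with at most 3 mismatches of 20 bases, at most 1 base between the half-sites, and the C and G at the core of each half-site kept. Windows were held for 8 of the 9 genes, with TP53INP1 the exception, and 4 of the 8 had a match, against 2.91% of the 27305 genes with windows and 2.38% of all 35116 windows. Of the 44 other p53 targets described further on, 34 had windows and 8 of those had a match. Among the 9 genes, BTG2, BBC3, ZMAT3 and TP53I3 had windows without a match. The first 3 of these rose and fell on the same days as the genes with a match, as described next. All 4 matches are shown with the match in capitals and the neighbouring bases in lower case, each 5′ to 3′ on its strand.
MDM2: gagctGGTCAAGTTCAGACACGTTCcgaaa
SESN1: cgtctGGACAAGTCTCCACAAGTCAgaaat
FAS: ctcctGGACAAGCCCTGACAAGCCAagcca
GDF15: tgcacAGCCATGCCCGGGCAAGAACtc

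The MDM2 stretch lies at chr12:68808918-68808947 on the plus strand, within the gene and in no GENCODE exon, has 2 mismatches, and its match begins at base -94 from a RefSeq start. The SESN1 stretch, at chr6:109009013-109009042 on the minus strand, has 3 mismatches, has its match begin at base -49 and also lies within the gene outside its exons. At FAS the stretch is chr10:88991304-88991333 on the plus strand, with 2 mismatches, a match that begins at base -122 from a start, and a place inside an annotated exon. The GDF15 stretch, chr19:18386181-18386207 on the plus strand, has 3 mismatches and a match that begins at base 28 after the start, in an exon with both untranslated and coding bases. A match describes letters only, and a window without one says nothing about sites further away.

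Values are reads divided by 1 size factor per library (normalised values), with recovered totals of 18847917 to 22667754 reads per library. Differences are on log2(value + 1), with d0 subtracted unless another day is named, and were tested by limma over 13343 genes with Benjamini-Hochberg adjustment and a threshold of 0.05. KRT5 and KRT14, keratins of basal mammary epithelium, had at least 102567 and 68097 reads in every library. Of 7 basal epithelial markers (KRT5, KRT14, TP63, CDH1, EPCAM, ITGA6 and LAMB3), 2 were called higher and 4 lower than d0 at d10. At d20, 3 were higher and 4 lower. The shares of all genes were 37.0% and 30.7% (d10) and 32.5% and 30.2% (d20). On the other treated days 4 were higher and 1 to 3 lower (31.3% to 39.2% and 28.5% to 37.3% of all genes). EPCAM had 249 to 2429 reads and CDH1 2677 to 8219. The mesenchymal genes FN1, VIM, ZEB1, CDH2 and POSTN were called higher on all 6 treated days. Of 8 markers of blood, endothelial and pigment cells, 4 (PTPRC, CD3E, CDH5 and HBB) had at most 3 reads in all 21 libraries. Of the other 4, the macrophage marker CD68 had 344 to 840 reads, the endothelial markers PECAM1 and VWF 4 to 51 and 2 to 13, and the pigment cell marker MLANA 5 to 20. One library, the last of the 3 d7 columns and called d7 library 3 here, stood apart. It differed from the other two d7 libraries by a root mean square of 0.47 and 0.46 on the log2 scale over the genes tested, against 0.21 to 0.24 over the other 19 pairs of the same day. Calls of the 9 genes against d0 are therefore given with it and, where leaving it out changes the call, also without it.

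**Figure D1:**
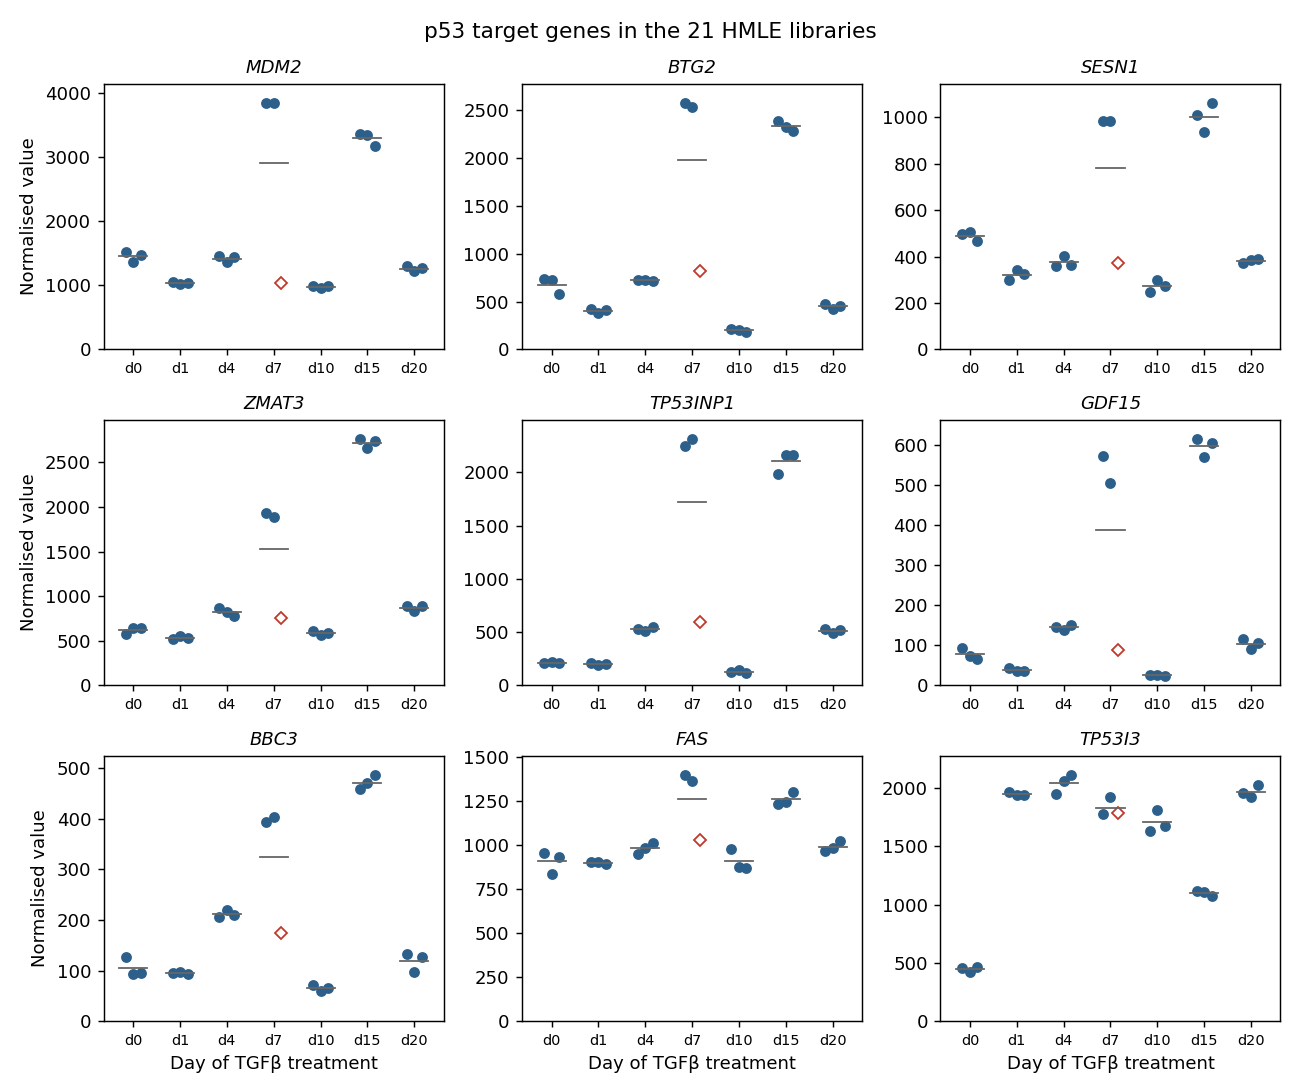
Normalised value (vertical axis, linear from 0) of each of the 9 p53 target genes in the 21 HMLE libraries by day of TGFβ treatment (horizontal axis). Points are libraries, bars the mean of 3, and the open red diamond is d7 library 3, which sits far below the other d7 libraries in 7 of the 9 panels.

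Of the 9 genes, 8 rose and fell together in 2 waves. All 8 were called higher than d0 at d7, where 2 libraries were high, and at d15, where all 3 were (34.6% and 39.2% of all genes). Between these days they fell back, to below d0 by the test at d10 in 5 of the 8 (30.7% of all genes). At d1 3 of the 8 were called lower (28.5% of all genes). FAS, ZMAT3 and, with all libraries, MDM2 were not called at d10, and BBC3 at d1 lay inside the d0 range. At d20 the 8 were within about 2.39-fold of d0. TP53I3 was the exception, since it rose at d1, stayed above d0 on all treated days and was lowest of these at d15. The F test over all days called all 9 genes (limma, largest adjusted p = 2.28e-05), but it also called 95.9% of the genes tested, so that share is near the background.

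MDM2, the ligase that marks p53 for destruction, had normalised values of 1516, 1369.8 and 1466 at d0, 1053, 1024 and 1030.1 at d1 and 1450.3, 1359 and 1437 at d4. At d7 the values were 3837, 3839 and 1039, at d10 987, 959 and 982, at d15 3354, 3349 and 3179 and at d20 1302, 1218 and 1265. Both high d7 libraries and all 3 d15 libraries lay above every other library, d1 and d10 lay below d0 without overlap, and d7 library 3 lay inside the d1 range. The log2 difference was 0.78 (SE 0.28, adjusted p = 0.0187) at d7 and 1.18 (SE 0.28, adjusted p = 0.000651) at d15. With d7 library 3 left out it became 1.40 (SE 0.04, adjusted p = 8.41e-28) at d7, and the falls at d1, -0.48 (SE 0.04, adjusted p = 3.45e-14), and at d10, -0.57 (SE 0.04, adjusted p = 1.74e-16), were then called, whereas with it they were not (adjusted p = 0.141 and 0.0765). The estimates at d1 and d10 were the same in both fits. What differed was how each fit estimated the spread that all days share, with a smaller SE without the library. Over all alternatives the adjusted p ran from 8.41e-28 to 0.183 at d7, 3.45e-14 to 0.246 at d1 and 1.74e-16 to 0.153 at d10, so only the rise at d15 (2.47e-27 to 0.00339) passed under every one. The call at d7 was lost without d7 library 1 or library 2 (0.46 each) or d0 library 2 (0.74). In the order d15, d7, d0, d4, d20, d1, d10, only d7 and d0 were separated with all libraries, while without the library d7 came first and all neighbours but d0 and d4, and d1 and d10, were separated.

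BTG2 and TP53INP1 restrain growth, the first as an antiproliferative partner of the mRNA deadenylation complex and the second as a stress protein of autophagy and cell death. For BTG2 the normalised values were 733, 728 and 575 at d0, 425, 382 and 414 at d1, 728, 722 and 715 at d4 and 2575, 2532 and 823 at d7, followed by 217, 201 and 182 at d10, 2388, 2329.9 and 2286 at d15 and 476, 424 and 458 at d20. The d10 libraries were the lowest of all 21 and did not overlap any other day, and d4 lay inside the d0 range. BTG2 rose by 1.37 (SE 0.25, adjusted p = 6e-05) at d7 and 1.79 (SE 0.25, adjusted p = 1.41e-06) at d15 and changed by -0.73 (SE 0.25, adjusted p = 0.0165) at d1 and -1.75 (SE 0.25, adjusted p = 2.78e-06) at d10, so its mean at d15 was 11.7-fold that at d10. At d20 the difference of -0.58 missed the threshold (adjusted p = 0.0517) and passed it without d7 library 3 (adjusted p = 5.06e-10, with a range of 5.06e-10 to 0.135 over all alternatives) or without d0 library 3 (-0.69). The call at d1 was lost without d0 library 1 or 2 or d1 library 2 (-0.68 to -0.67).

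TP53INP1 had values of 213, 221 and 209.8 at d0, 207, 188 and 198 at d1, 528, 508 and 550.3 at d4 and 2249, 2310.3 and 598 at d7. It then had 125, 145 and 112 at d10, 1989, 2159 and 2164 at d15 and 528, 490.4 and 518 at d20. Of the 9 genes it had the largest difference from d0 with all libraries, 3.29 (SE 0.29, adjusted p = 1.27e-09) at d15, and it was already higher at d4, 1.30 (SE 0.29, adjusted p = 0.000453). Its fall below d0 at d10 was -0.75 (SE 0.29, adjusted p = 0.0276), which 7 of 14 alternatives called and which was lost without any 1 of the d0 libraries or d10 library 1 or 3 (-0.77 to -0.67). At d20 it stayed above d0 by 1.25 (SE 0.29, adjusted p = 0.000824), with all 3 libraries above all 3 untreated ones, and d4 and d20 did not separate from each other with or without d7 library 3.

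SESN1, a sestrin that restrains mTOR signalling and limits peroxides, was at 498, 506 and 467 at d0, 298, 343 and 325 at d1 and 358, 402 and 365 at d4. Its values were 982, 986 and 372 at d7, followed by 249, 300.3 and 272 at d10, 1012, 938 and 1061 at d15 and 372, 387 and 388 at d20. All libraries of d1, d4, d10 and d20 lay below all libraries of d0, and d15 and 2 of the d7 libraries lay above all of them. The log2 difference was -0.61 (SE 0.22, adjusted p = 0.0203) at d1, -0.84 (SE 0.22, adjusted p = 0.00174) at d10, 0.54 (SE 0.22, adjusted p = 0.0337) at d7 and 1.03 (SE 0.22, adjusted p = 0.000205) at d15. The differences at d4, -0.39, and d20, -0.36, were called without d7 library 3 (adjusted p = 1.78e-06 and 9.01e-06, against 0.115 and 0.158 with it) or under few other alternatives (ranges of 1.78e-06 to 0.217 and 9.01e-06 to 0.262). Without d7 library 3 the rise at d7 was 1.00 (SE 0.07, adjusted p = 2.01e-15). With all libraries it was the least firm of those at d7, with an adjusted p of 2.01e-15 to 0.226 over the alternatives, 5 of 13 of which called it, while d15 passed under all 14. Leaving out any d0 library (0.50 to 0.56) or either high d7 library (0.30 and 0.31) ended the d7 call, and leaving out d0 library 1 or 2 or d1 library 1 ended that at d1 (-0.60 to -0.55). All 3 sestrins were called lower at d1 and d10, as were 28.5% and 30.7% of all genes. SESN2, a sestrin also raised by amino acid stress, had -0.32 ± 0.12 at d1 and -0.39 ± 0.12 at d10 (log2 ± SE) and was called higher at d7, d15 and d20 (0.41 ± 0.12, 0.53 ± 0.12 and 0.41 ± 0.12). SESN3 was called lower at d4 and d20 as well, with -1.38 ± 0.15 at d10. It was not called at d7 or d15 (adjusted p = 0.487 and 0.0956), but without d7 library 3 it was higher at d7, 0.39 (SE 0.12, adjusted p = 0.00543), and lower at d15, -0.28 (SE 0.11, adjusted p = 0.0192).

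BBC3 encodes PUMA, a BH3-only protein that triggers the mitochondrial death pathway. The normalised values were 128, 93.3 and 95.0 at d0, 95.2, 97.4 and 94.3 at d1, 206, 220.1 and 211 at d4 and 395, 403 and 175 at d7, then 71.7, 59.3 and 65.5 at d10, 458, 471 and 486 at d15 and 134, 96.8 and 126 at d20. The d1 libraries lay inside the d0 range, the d20 libraries overlapped it, and the d10 libraries lay below every other library. BBC3 rose by 1.02 (SE 0.21, adjusted p = 0.000187) at d4, 1.53 (SE 0.21, adjusted p = 1.59e-06) at d7 and 2.17 (SE 0.21, adjusted p = 5.15e-09) at d15, and fell by 0.67 at d10 (SE 0.21, adjusted p = 0.0078), a call that was lost without d0 library 1 (-0.52). It was not called at d1 or d20 with or without d7 library 3 (adjusted p at d20 = 0.486 and 0.166).

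FAS, the cell-surface death receptor for FAS ligand, moved least. It had 958, 838 and 932 at d0, 902, 902 and 893 at d1, 949.7, 985 and 1011 at d4 and 1395, 1363 and 1029 at d7, and 975, 876 and 870.3 at d10, 1233, 1242 and 1303 at d15 and 968, 982 and 1020.3 at d20. All 3 d15 libraries and the high d7 libraries lay above every library of another day, and its highest day mean was 1.4-fold its lowest. FAS rose by 0.46 (SE 0.08, adjusted p = 3.16e-05) at d7 and 0.47 (SE 0.08, adjusted p = 1.7e-05) at d15 and was called on no other day with all libraries. Without d7 library 3 it was also called at d4, 0.11 (SE 0.05, adjusted p = 0.0297), against an adjusted p of 0.209 with it and a range of 0.0297 to 0.71, and at d20 (adjusted p = 0.0193 against 0.182, range 0.0193 to 0.563), although the sign turned on both days under equal library totals. The strand used in counting was not given in the sources used here, and the annotation places ACTA2, a smooth muscle actin, on the opposite strand across part of FAS. ACTA2 had 354, 342 and 339 at d0, 838, 833 and 543 at d7, then 358, 417 and 356 at d10 and 1012, 988 and 1020.4 at d15, and was thus also highest at d15 and in the first and second d7 libraries, and its part in the FAS values was not tested.

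GDF15, a secreted stress cytokine of the TGFβ superfamily, had 94.3, 72.9 and 66.3 at d0, 42.9, 34.9 and 34.7 at d1, 145, 139 and 152 at d4 and 573, 506 and 88.4 at d7. The values were 26.9, 26.2 and 23.5 at d10, 614, 569.8 and 605 at d15 and 117, 91.6 and 105 at d20. It had the widest range of the 9 genes, with a d15 mean 23.4-fold the d10 mean, and the d10 libraries held as few as 24 reads of it. The log2 difference was -1.03 (SE 0.40, adjusted p = 0.032) at d1, 0.91 (SE 0.40, adjusted p = 0.0472) at d4, 1.93 (SE 0.40, adjusted p = 0.000239) at d7, -1.56 (SE 0.40, adjusted p = 0.00169) at d10 and 2.94 (SE 0.40, adjusted p = 9.12e-07) at d15. At d7, library 3 lay inside the d0 range while the others lay far above it. The call at d4 was one of few, since 3 of 14 alternatives made it (1.9e-08 to 0.128), and it was lost without d0 library 2 or 3 or any d4 library (0.80 to 0.94). The fall at d1 was called by 8 of 14 and was lost without d0 library 1 or 2 or d1 library 2 or 3 (-1.06 to -0.88). The d20 libraries overlapped d0, and the difference of 0.43 missed the threshold with d7 library 3 (adjusted p = 0.365) and passed it without (adjusted p = 0.00243, range 0.00243 to 0.62).

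ZMAT3, a zinc finger protein that binds RNA and acts on splicing and mRNA stability, had 580.2, 639 and 642 at d0, 517, 557 and 529 at d1, 863, 829 and 783 at d4 and 1939, 1893 and 751 at d7. It had 610.0, 565 and 592 at d10, 2759, 2658 and 2743 at d15 and 890.4, 832 and 896 at d20. All its d15 libraries lay above the high d7 libraries, as those of BBC3 did, and d15 was higher than d7 by 0.51 (SE 0.05, adjusted p = 1.23e-10) even without d7 library 3. ZMAT3 rose by 1.18 (SE 0.20, adjusted p = 3.27e-05) at d7, 2.13 (SE 0.20, adjusted p = 4.41e-09) at d15 and 0.49 (SE 0.20, adjusted p = 0.0409) at d20, the last of which 4 of 14 alternatives called and which was lost without any 1 library of d0 or d20 (0.45 to 0.53). The differences at d1, -0.21, and d4, 0.41, were called without d7 library 3 (adjusted p = 0.000147 and 4.82e-10) and not with it (0.379 and 0.0761, ranges of 0.000147 to 0.516 and 4.82e-10 to 0.34). The difference at d10, -0.07, was called in neither fit (adjusted p = 0.761 and 0.159), so ZMAT3 and FAS were the 2 genes of the 8 with no fall below d0 at d10 by either fit.

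TP53I3, a quinone oxidoreductase that is linked to oxidative stress and p53-dependent death, went another way. Its normalised values were 459, 421 and 462 at d0, 1960.1, 1936 and 1935 at d1, 1946, 2056 and 2104 at d4 and 1776, 1919 and 1779 at d7. They were 1629, 1810.3 and 1674 at d10, 1114, 1111 and 1072 at d15 and 1950.3, 1922 and 2024 at d20. All 18 treated libraries lay above all untreated ones, d15 was the lowest treated day, and d7 library 3 lay between the other d7 libraries. The log2 difference was 2.12 (SE 0.05, adjusted p = 2.03e-19) at d1, 2.18 (SE 0.05, adjusted p = 7.26e-20) at d4, 1.30 (SE 0.05, adjusted p = 4.21e-16) at d15 and 2.13 (SE 0.05, adjusted p = 1.22e-19) at d20. From d10 to d15 TP53I3 fell by 0.63 (SE 0.05, adjusted p = 7.83e-11), while the other 8 genes rose between the same days. The annotated span of FAM228B overlaps that of TP53I3 on the opposite strand, and the same holds for CPM at MDM2 and NDUFAF6 at TP53INP1. Whether exons overlap was not examined, and the part of these genes in the values was not tested. CPM had at most 127.3 in any library, against at least 959 for MDM2. Its means were 60.2 at d0, 99.7 at d7, 68.7 at d10 and 88.4 at d15.

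Counted by day against d0, 1 of the 9 genes was called higher and 3 lower at d1, where 31.3% of all genes tested were higher and 28.5% lower. At d4, 4 were higher (36.9% of all genes) and none lower (35.3%). At d7 all 9 were higher and none lower, against 34.6% and 32.6% of all genes, and the median log2 difference of the 9 was 1.37. At d10, 1 was higher and 5 were lower (37.0% and 30.7%), with a median of -0.67. At d15 all 9 were higher and none lower (39.2% and 37.3%), with a median of 1.79, and at d20, 3 were higher and none lower (32.5% and 30.2%), with a median of 0.17. Over the alternatives 6 to 9 were higher at d7 and 8 to 9 at d15, with the lowest counts under a minimum log2 difference of 1. The share of all genes under that minimum is not given here. The share lower at d1 and the share higher at d4 were near those of all genes, whereas the shares higher at d7 and d15 were not.

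**Figure D2:**
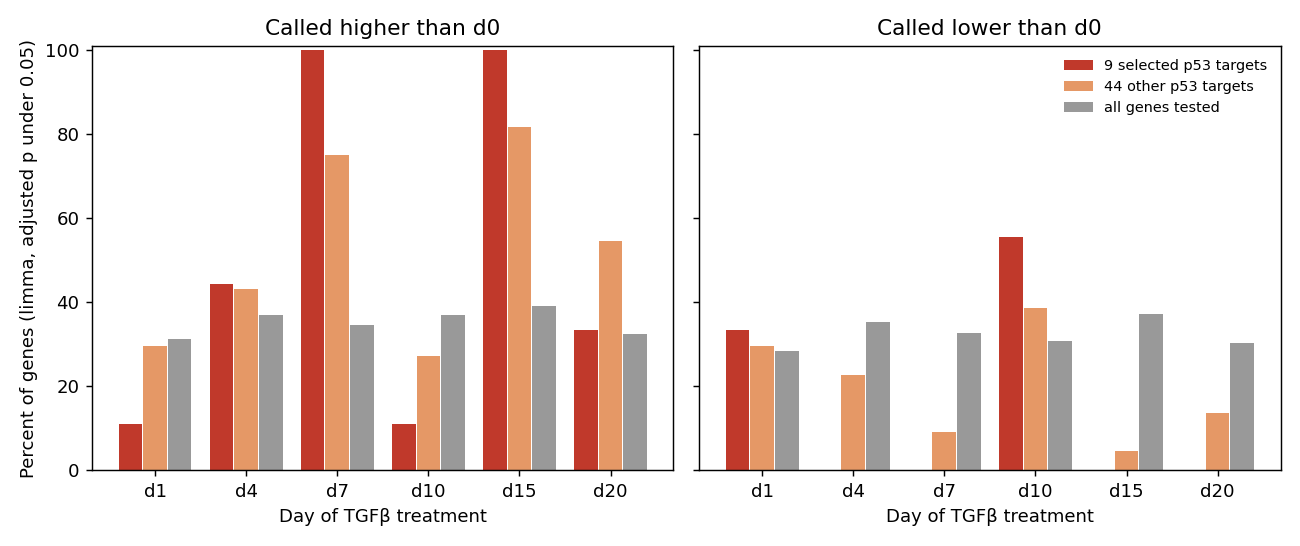
Percent of genes (vertical axis) called higher (left) or lower (right) than d0 on each day (horizontal axis) by limma at an adjusted p under 0.05, with all 21 libraries. Red bars are the 9 p53 targets, orange bars the 44 other p53 targets and grey bars all 13343 genes tested; the red bars reach 100% at d7 and d15 in the left panel only.

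Without d7 library 3 the same counts were 1 higher and 5 lower at d1 (34.4% and 31.8% of all genes), 6 and 1 by d4 (39.0% and 37.6%), and 9 and 0 at d7 (36.8% and 34.4%). They were 1 and 6 for d10 (39.6% and 33.1%), 9 and 0 for d15 (41.0% and 38.9%) and 5 and 3 for d20 (35.4% and 33.3%). Both directions were thus present at d20 in that fit. TP53I3, TP53INP1, ZMAT3, GDF15 and FAS were higher than untreated, and BTG2, SESN1 and MDM2 were lower, although FAS turned to -0.08 under equal library totals.

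Steps between successive days gave the waves more directly. From d1 to d4, 5 genes rose and none fell, where 32.9% of all genes rose and 32.0% fell. BBC3, BTG2, GDF15, TP53INP1 and ZMAT3 were the 5, with log2 differences of 0.63 to 1.93. The number was 8 without d7 library 3, where the median of the 9 genes was 0.63, against 0.01 over all genes. For steps between days, the shares of all genes called in that fit are not given here. From d4 to d7, 8 rose and TP53I3 fell, where 25.5% of all genes rose and 25.5% fell. From d7 to d10, 8 fell and none rose (35.2% and 36.2% of all genes), and the largest falls were -3.51 ± 0.29 for TP53INP1, -3.48 ± 0.40 for GDF15 and -3.13 ± 0.25 for BTG2 (log2 ± SE). Without d7 library 3 all 9 fell, TP53I3 by 0.12 (adjusted p = 0.0275 against 0.0678 with it). The median of the 9 was then -1.97, against 0.01 over all genes. From d10 to d15, 8 rose and TP53I3 fell (39.3% and 40.5%), and from d15 to d20, 8 fell and TP53I3 rose (36.3% and 37.7%). The d10 and d15 groups hold no library that stands apart, so the second wave does not rest on d7 library 3.

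The heights of the 2 waves were compared with d7 library 3 left out, a choice made after seeing the data that leaves 2 libraries at d7. A difference that is not called does not show equal heights. The difference of d15 minus d7 was then -0.13 ± 0.07 for BTG2, -0.12 ± 0.07 for TP53INP1, 0.03 ± 0.07 for SESN1, 0.15 ± 0.14 for GDF15 and 0.24 ± 0.12 for BBC3 (log2 ± SE), none of them called, although with the library GDF15 and BBC3 were called higher at d15 than at d7 (1.01 (SE 0.40, adjusted p = 0.0366) and 0.64 (SE 0.21, adjusted p = 0.0136)). Without it MDM2 and FAS were lower at d15 (-0.22 (SE 0.04, adjusted p = 3.52e-05) and -0.13 (SE 0.05, adjusted p = 0.0327)), where neither was called with it (adjusted p = 0.223 and 0.93), while ZMAT3 was higher and TP53I3 lower (-0.75 (SE 0.05, adjusted p = 8.59e-17)).

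In d7 library 3 itself, 7 of the 9 genes were at least 2-fold lower than the mean of the other d7 libraries, which 3.19% of all genes tested were, and 8 of 9 were lower than both, against 41.7% of all genes. The log2 difference ranged from -2.59 for GDF15 through -1.93 for TP53INP1 and -1.88 for MDM2 to -0.42 for FAS and -0.05 for TP53I3. Over all genes this library was nearest to d4 and d20 (root mean square 0.45 to each), but little nearer than to d7 libraries 2 and 1 (0.46 and 0.47) and d1 (0.48). Its mean over the cell division genes described further on was -0.21, inside the -0.23 to -0.20 of d1 and above the -0.77 to -0.71 of d4. Among the 9 genes the library was within 0.19 of the d4 mean for BTG2, TP53INP1, SESN1, FAS, ZMAT3 and TP53I3. For BBC3, MDM2 and GDF15 it was -0.28, -0.45 and -0.71 from the d4 mean, and for GDF15 it was nearer to d0 (0.20). Other days lay as near for some genes. TP53I3 had 1779 in this library, against means of 2035 at d4 and 1965 at d20, and MDM2 had 1039, against 1036 at d1. BTG2, at 823, was nearer to its mean of 721 at d4 than to 453 at d20. The library held more reads than either of the other d7 libraries (22388732). What sets it apart was not tested.

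**Figure D3:**
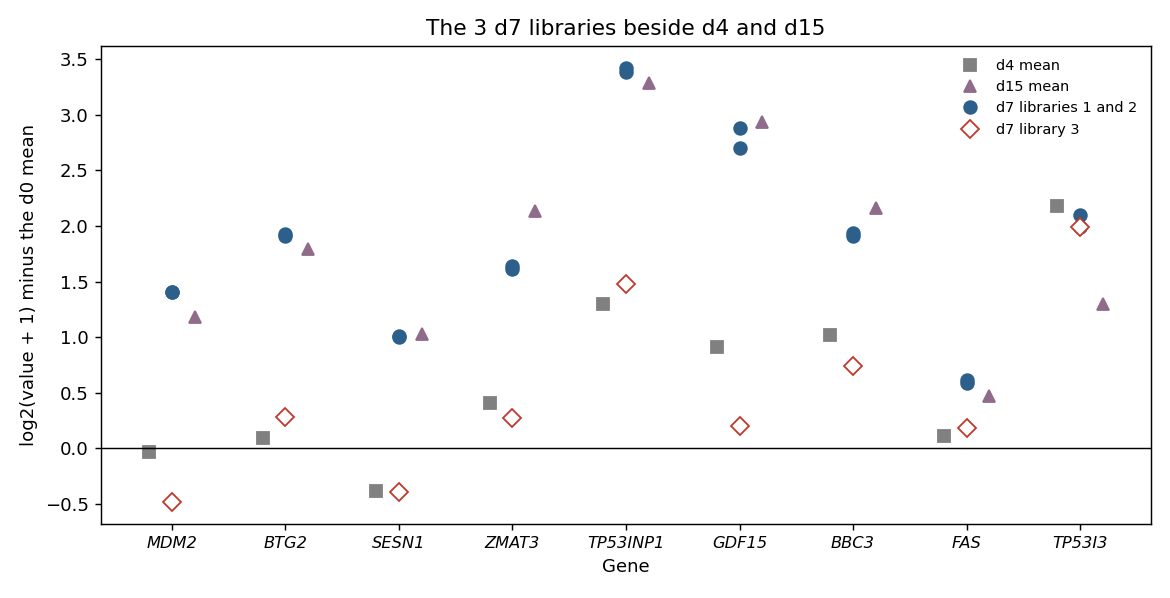
Difference from the d0 mean on log2(value + 1) (vertical axis) of each of the 9 genes (horizontal axis) for the d4 mean (grey squares), the 3 d7 libraries (blue circles and open red diamond) and the d15 mean (purple triangles). The circles of d7 lie near the d15 triangles for most genes, whereas d7 library 3 lies within 0.19 of the d4 squares for 6 genes and below them for BBC3, MDM2 and GDF15. For TP53I3 the d7 libraries lie together.

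A list of 44 other genes known as p53 targets was followed in the same way. At d7, 33 were higher and 4 lower than d0 (34.6% and 32.6% of all genes). At d15, 36 were higher and 2 lower (39.2% and 37.3% of all genes). The median log2 differences were 0.70 and 0.92. At the days between and around, the numbers higher and lower were 13 and 13 (d1), 19 and 10 (d4), 12 and 17 (d10) and 24 and 6 (d20), with medians of 0.02, 0.13, -0.15 and 0.25. The d1 shares, 29.5% each way, were near the 31.3% and 28.5% of all genes. At d4 they were 43.2% and 22.7% against 36.9% and 35.3% of all genes. At d10 they were 27.3% and 38.6% against 37.0% and 30.7%, and at d20 54.5% and 13.6% against 32.5% and 30.2%. Without d7 library 3, 16 rather than 10 were lower at d4 (36.4% of the 44, against 37.6% of all genes). The list thus had its highest medians on the same days as the 9 genes. In d7 library 3, 41 of the 44 were lower than in both other d7 libraries (41.7% of all genes). Of the 44, 13 were at least 2-fold lower than the mean of those libraries (3.19% of all genes). The list was chosen with earlier results of these data known, so the shared days are a description and no independent support.

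CDKN1A, which encodes the CDK inhibitor p21, had the largest difference of the list. Its values were 1937, 1831 and 1668 at d0, 3103, 2917 and 3025 at d1, 5413, 5725 and 5163 at d4 and 22956, 20636 and 4839.8 at d7, and 2642, 2903 and 2682 at d10, 23139.9, 22797 and 23650.4 at d15 and 6418, 5529 and 5456 at d20. Unlike MDM2 or BTG2 it was above every untreated library on all treated days, and the log2 difference was 3.68 (SE 0.32, adjusted p = 1.12e-09) at d15, 1.68 (SE 0.32, adjusted p = 0.000124) at d20 and 0.60 (SE 0.32, adjusted p = 0.108) at d10, where it passed the test without d7 library 3 (adjusted p = 2.12e-14). The next largest were also at d15. They were SPATA18, which acts in mitochondrial quality control, at 2.56 ± 0.23, EDA2R, a TNF receptor family member, at 2.41 ± 0.26, CYFIP2, of the actin-regulating WAVE complex, at 2.28 ± 0.31, and ACER2, a ceramidase, at 2.03 ± 0.28 (log2 ± SE, all called).

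The most negative differences among the other targets were at d10 for TP53AIP1, NINJ1 and KITLG. NINJ1, which acts in the rupture of dying cells, had 876, 915 and 922 at d0, 2226, 1995 and 714 at d7, then 140.3, 169 and 134 at d10 and 2341, 2258 and 2155 at d15. KITLG, the ligand of the receptor KIT, had 399.6, 374 and 367 at d0, 1201, 1156 and 160.1 at d7, then 85.6, 71.9 and 63.6 at d10 and 828, 864 and 821 at d15. Both thus fell below d0 at d10, by -2.61 ± 0.24 and -2.36 ± 0.43, and were above it at d15, by 1.31 ± 0.24 and 1.14 ± 0.43. TP53AIP1, a mitochondrial death protein, was lower on every treated day, with a difference of -3.64 ± 0.46 at d10 from a d0 mean of 53.1 ± 4.99 (SD, n = 3). Its means were 3.70 at d4 and 5.88 at d15, so the sizes of its differences rest on few reads. PERP, a desmosomal protein, was lowest at d20 (-1.16 ± 0.14), and FUCA1, a lysosomal fucosidase, at d1 (-1.27 ± 0.19).

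**Figure D4:**
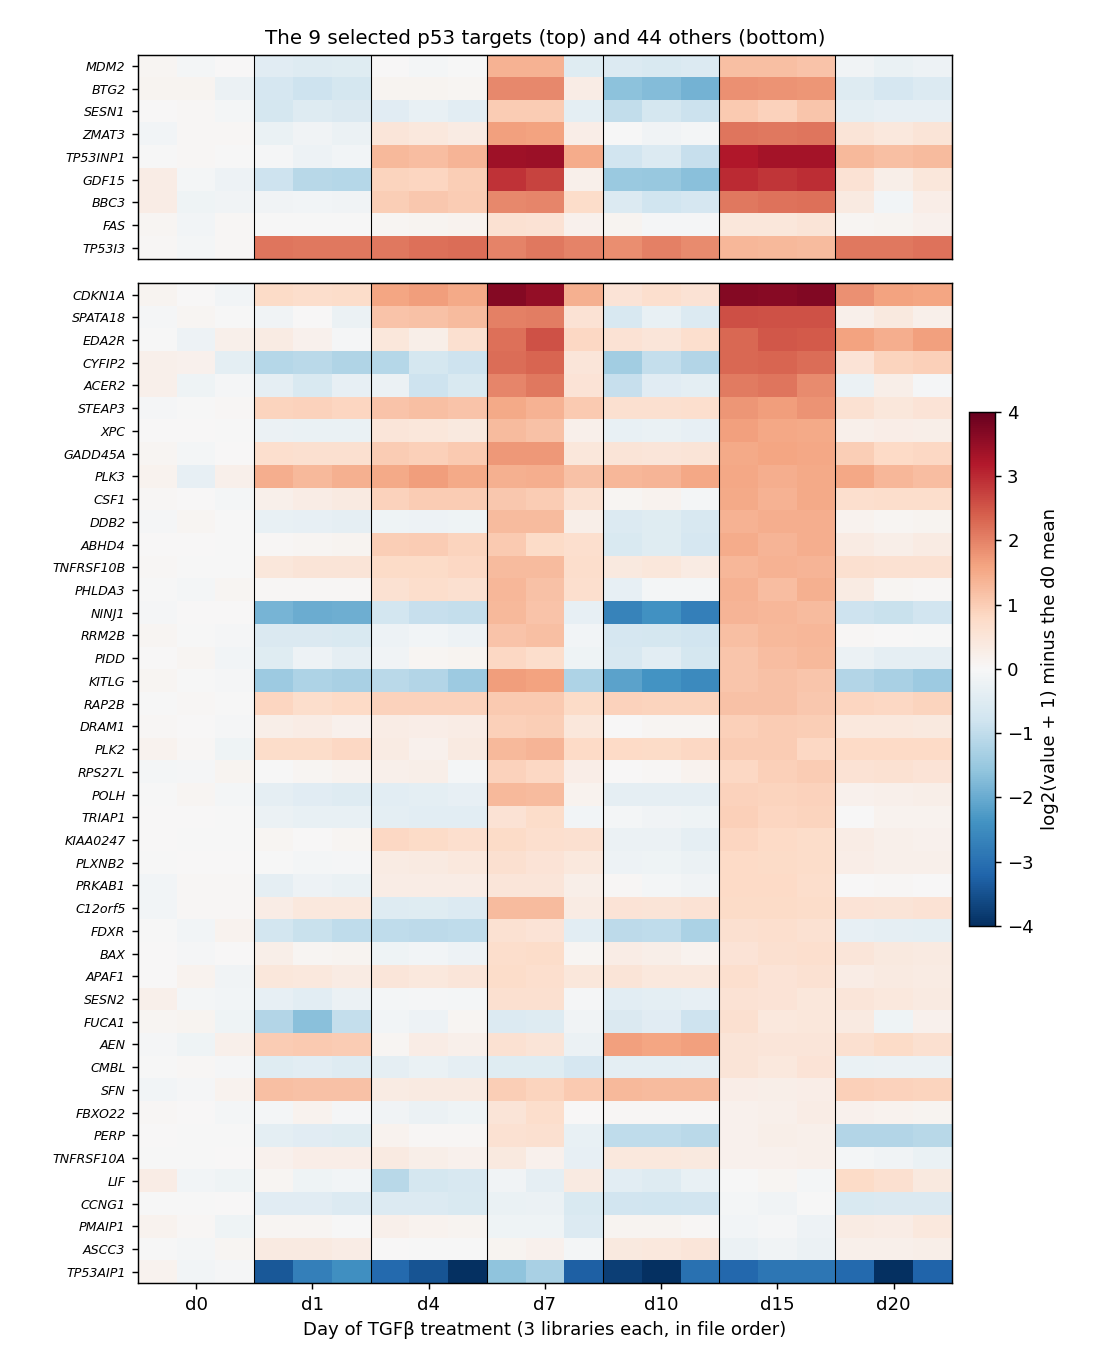
Difference from the d0 mean on log2(value + 1) (colour, saturated at 4 in either direction) for the 9 p53 targets (top) and the 44 others (bottom, sorted by d15) in the 21 libraries, 3 per day in file order. Red columns at d15 and in the first and second d7 libraries stand beside pale or blue columns at d1 and d10, and the last d7 column lies below both other d7 columns for 8 of the 9 and 41 of the 44 genes.

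The genes that regulate p53 did not follow the waves as a group. Of the 15 described here, the numbers called higher and lower were 3 and 8 (d1), 4 and 7 (d4), 6 and 7 (d7), 4 and 6 (d10), 6 and 7 (d15) and 4 and 6 (d20). The shares of all genes were 31.3% and 28.5% (d1), 36.9% and 35.3% (d4) and 34.6% and 32.6% (d7). They were 37.0% and 30.7% (d10), 39.2% and 37.3% (d15) and 32.5% and 30.2% (d20). MDM4, the partner of MDM2 that masks p53, was called lower on all 6 treated days, with log2 differences of -0.71 ± 0.09 at d20 and -0.27 ± 0.09 at d15 (± SE).

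PPM1D, a phosphatase that switches p53 signalling off and is a p53 target too, had 279, 272 and 234 at d0, 192, 209 and 176 at d1, 345, 358 and 258 at d7 and 433, 427 and 396 at d15. It was lower at d1 (-0.44 ± 0.11) and higher at d7 and d15 (0.28 ± 0.11 and 0.68 ± 0.11), and without d7 library 3 the value at d7 was 0.43 ± 0.09. TP73, a p53 paralog, had 477, 516 and 504 at d0, 475, 507 and 301 at d7, then 182, 179.8 and 179 at d10 and 556, 563 and 616 at d15. It was called lower at d1, d4, d10 and d20, with -1.46 ± 0.12 at d10, and not at d7 or d15, although without d7 library 3 it was called higher at d15 (0.21 (SE 0.07, adjusted p = 0.00421)). TP63, the paralog that marks basal epithelium and binds many of the same sites, was higher at d1, d4, d7 and d15, with 0.49 ± 0.04 at d7, and lower at d10 and d20, with -0.29 ± 0.04 and -0.40 ± 0.04. CDKN2A, whose ARF product restrains MDM2, was higher at d7, d15 and d20, by at most 0.38 ± 0.08.

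Cell division genes were lowest at d15. Of 20 such genes, the numbers called higher and lower were 1 and 12 (d1), 0 and 20 (d4), 1 and 19 (d7), 3 and 6 (d10), 0 and 20 (d15) and 4 and 4 (d20). The shares of all genes were 31.3% and 28.5% (d1), 36.9% and 35.3% (d4) and 34.6% and 32.6% (d7). They were 37.0% and 30.7% (d10), 39.2% and 37.3% (d15) and 32.5% and 30.2% (d20). Without d7 library 3 the numbers of division genes were 6 and 12 at d10 (39.6% and 33.1% of all genes). They were 7 and 7 at d20 (35.4% and 33.3%) and 2 and 13 at d1 (34.4% and 31.8%). The mean log2 difference of the division genes per library was -1.63 to -1.60 at d15, -0.77 to -0.71 at d4, -0.07 to -0.06 at d10 and at most 0.04 at d20, and within d7 it was -0.67 to -0.21 with library 3 the highest. The same mean over the 8 p53 targets without TP53I3 was 1.86 to 1.90 at d15, 0.42 to 0.43 at d4, 0.29 to 1.85 at d7, -0.84 to -0.73 at d10 and 0.08 to 0.23 at d20. Low cell division genes and high p53 targets were thus found together at d15 and in the first and second d7 libraries, where the means were -0.67 and -0.62 for division and 1.85 and 1.82 for the targets. At d4 the division genes were lower than in those d7 libraries and the p53 targets were lower too. MKI67, the proliferation antigen, had 7209.8, 6834 and 11850.1 at d7 and 3385, 3226 and 3261 at d15 against 10626, 10739 and 10649 at d0, and PCNA, the DNA clamp that is itself often listed as a p53 target, had 1214, 1304 and 1250.3 at d15 against 3503, 3707 and 3865 at d0. The part of division in the p53 targets was not tested.

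**Figure D5:**
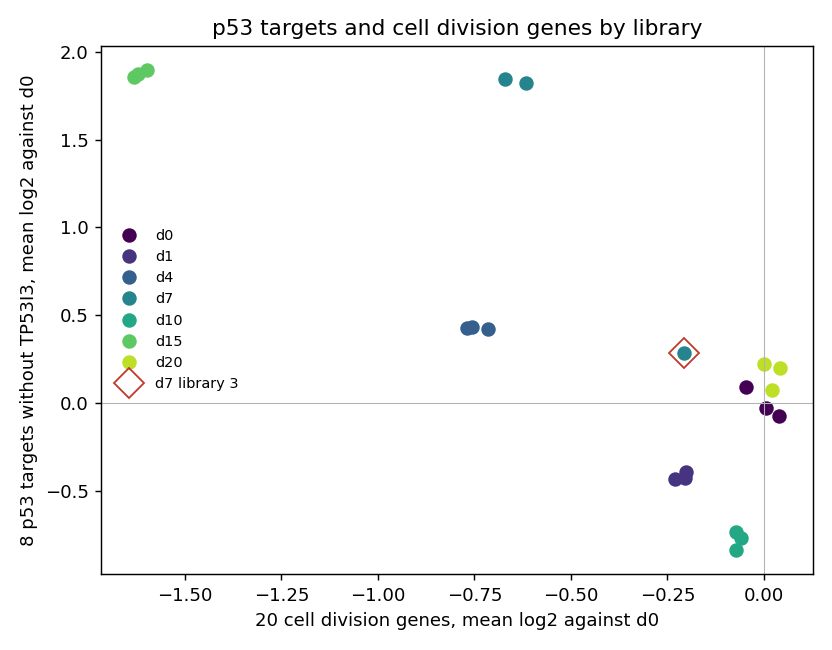
Mean log2 difference from d0 of 20 cell division genes (horizontal axis) and of the 8 p53 targets without TP53I3 (vertical axis), one point per library, coloured by day, with d7 library 3 ringed by a red diamond. The d15 libraries lie at the upper left, the d10 libraries at the lower right, and d4 lies below the high d7 libraries at about the same place on the horizontal axis.

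Amino acid and ER stress can raise GDF15, SESN2 and BBC3 without p53, and the genes of those pathways were split on every day. Of 12, the numbers higher and lower were 3 and 6 (d1), 5 and 4 (d4), 4 and 7 (d7), 3 and 8 (d10), 7 and 4 (d15) and 6 and 3 (d20). The shares of all genes were 31.3% and 28.5% (d1), 36.9% and 35.3% (d4) and 34.6% and 32.6% (d7). They were 37.0% and 30.7% (d10), 39.2% and 37.3% (d15) and 32.5% and 30.2% (d20). The mean log2 difference of the 12 stress genes was -0.21 to -0.14 in the d7 libraries, where the p53 targets were high in 2 of 3, and 0.37 to 0.40 at d15. Their part was not tested. Mesenchymal markers rose by a mean of 3.34 to 3.39 already at d1 and of 4.47 to 4.55 at d4. In d7 libraries 1 and 2 the mean was lower, 4.37 and 4.31, and in d7 library 3 it was 4.80. It was 5.40 to 5.46 at d10, 5.79 to 5.86 at d15 and 6.41 to 6.42 at d20. These means thus did not fall at d10 or d20 as the p53 targets did. In bulk RNA, fewer cells that express a gene and less of its RNA per cell cannot be told apart.

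Across the 21 libraries, the 28 pairs among the 8 genes had Pearson correlations of log2(value + 1) from 0.87 to 0.97, with a median of 0.92, and from 0.82 to 0.97 over the 18 libraries outside d7. TP53I3 had -0.30 to 0.11 with the 8. The libraries share their days, so these values describe the pattern and carry no test. The gene most like MDM2 was SESN1 (0.97), followed by CEL and RRM2B, of which RRM2B is a ribonucleotide reductase subunit and one of the 44 targets. Those most like the others were MR1, TNFRSF14 and TXNIP for GDF15, TP53TG1, TAP1 and NYNRIN for BTG2, PODNL1, TRIM22 and PAMR1 for TP53INP1, and FAM198B, CES2 and RRM2B for SESN1. For BBC3 they were FBXO2, HDAC11 and FAM134B, for ZMAT3 PLCD3, XPC and ZNF561, and for FAS ARAP1, C6orf138 and PDE6A. TP53I3 was most like SERPINE2, a secreted protease inhibitor, ACTN1, an actin crosslinker, and CD59, a complement regulator, each at 0.98.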

How the data were processed

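RNA from HMLE cells at 7 timepoints, 3 libraries each, was sequenced, and the authors deposited 1 table of normalised signal for 23201 gene symbols. The submitters' processing notes name STAR 2.7, Salmon 1.4 and the build hg19 with no role, and the annotation, the counting and its strand are not given in the sources used here. The deposited signal equals whole reads divided by 1 size factor per library; whole reads were recovered for 100% of values (tolerance 0.01), and the factors matched a median of ratios. Totals of 18847917 to 22667754 reads limit the precision of genes with few reads. A gene with at most 3 reads was treated as at the floor, which covers counting error only.

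The test was limma 3.58.1 (lmFit and eBayes with trend, R 4.3.3) on log2(value + 1) for the 13343 genes with a mean of at least 10, with 1 mean per day and all libraries in the fit, with Benjamini-Hochberg adjustment over the genes tested. Fold changes on this scale understate those of low genes. Alternatives were a pseudocount of 10, no filter, quantile normalization, equal library totals, a fit of the 2 groups alone, edgeR 4.0.16 and DESeq2 1.42.0 on the recovered reads, an absolute log2 difference of at least 1, and each library left out. The fit without d7 library 3 was added after seeing the data. The test was tried on simulated data. The genes and lists were chosen with earlier results of these data known. Named genes were the 9, MDM4, PPM1D, TP63, TP73, CDKN2A, CDKN1A, SESN2, SESN3, MKI67, PCNA and marker genes, the 5 other targets with the largest and the 5 with the smallest called difference (mean of at least 50 in one group), and the 3 genes most correlated with each of the 9. ACTA2, CPM, FAM228B and NDUFAF6 were named after their values or overlap were seen. One gene of the lists is not reported here. Windows around starts came from RefSeq and exons from GENCODE. Figures used matplotlib 3.10.9.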

Additional observations from a re-analysis of the deposited data

Results flagged for a closer look

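Of the 9 genes, 5 were called lower than d0 at d10 and higher than d0 at d15. Each call alone was made for 30.7% and 39.2% of all genes, and the share with both calls is not given here. The 5 genes were taken for these opposite calls in the same fit, so the choice fixed the sign of the difference between d15 and d10. That difference was not tested apart from the choice and is given as a description. It was 4.49 ± 0.40 on the log2 scale (± SE, n = 3 libraries a day) for GDF15, 3.54 ± 0.25 for BTG2, 4.04 ± 0.29 for TP53INP1, 1.87 ± 0.22 for SESN1 and 2.83 ± 0.21 for BBC3. Groups of 3 libraries are too small for a test of single outlying libraries, so d7 library 3 is described in the comparisons above and not tested.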

How the results depend on the processing

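No paired analysis was possible because replicate numbers are absent from the column names. Of 482 alternative values for counts, 441 were within 1.5 times the main count, and of 747 for single genes, 650 kept their direction and call, 54 lost the call, 31 gained it and 12 changed sign. Rescaling to the same total moved the median of all genes to between -0.20 and -0.14 and the share called lower at d1 from 28.5% to 50.2% of genes (47.2% to 50.8% over the 6 days), so its calls are read against that shift. Under it the 9 genes gave 5 lower at d1, 1 at d4 and 2 at d20, and the other targets gave 16 lower at d4, 4 at d15 and 10 at d20 and 15 higher at d20. It turned BTG2 at d4 to -0.10, FAS at d4 to -0.084, BBC3 at d20 to -0.025 and FAS at d20 to -0.075, each less than the shift of the median gene in size. Quantile normalization gave 1 lower at d20. With only the 2 groups in the fit the 9 genes gave 5 lower at d1, 1 at d4, and 5 higher and 3 lower at d20, and the other targets 16 lower at d4.

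Leaving out each library gave 0 to 5 lower at d1 (0 without d0 library 1 or d0 library 2, 1 without d1 library 2 and 5 without d7 library 3), 0 to 1 at d4, and 3 to 6 at d10 (3 without d0 library 1). At d20 it gave 2 to 5 higher and 0 to 3 lower, with 5 and 3 without d7 library 3 and 1 lower without d0 library 3. From d1 to d4 it gave 5 to 8 higher and from d4 to d7 5 to 8, with 5 when d4 library 2 or either high d7 library was left out. The other targets had 9 to 16 lower at d4. Signs changed for BTG2 at d4 (-0.018 to 0.157, negative without d0 library 3), BBC3 at d1 (-0.205 to 0.022), FAS at d1 (-0.072 to 0.024) and FAS at d10 (-0.060 to 0.036). With an absolute log2 difference of at least 1, 1 of the 9 was lower at d1 and 2 at d10. The other targets then gave 3 higher and 5 lower (d1), 5 and 3 (d4), 11 and 1 (d7), 3 and 6 (d10), 19 and 1 (d15), and 3 and 3 (d20). The shares of all genes under this minimum are not given here, so these counts cannot be read against them. Where a cause is not given, the cause was not tested.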
